A study of Homo sapiens with 2 samples.

Results

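The HOX clusters are the 4 stretches of the human genome that hold the HOX genes, and they were examined here in accessible chromatin of GM12878, a B lymphoblastoid line grown from B lymphocytes that Epstein-Barr virus had transformed. Regions of the deposited list belonged to a cluster when their midpoint fell within its bounds in the build hg19: HOXA on chromosome 7 (27132614 to 27250000), HOXB on chromosome 17 (46606807 to 46806111), HOXC on chromosome 12 (54332576 to 54449814) and HOXD on chromosome 2 (176957532 to 177055635). Of the 23612 regions in the list, 2 were members, 1 in HOXA and 1 in HOXC, and none lay in HOXB or HOXD. ATAC-seq, in which a transposase cuts and tags open DNA, was run on 2 untreated cultures of the line, with 50000 growing cells in each. Both cultures form 1 group, and the 1 list used here covers both, without counts or values per culture. The depth behind it is therefore unknown here, no spread between cultures can be given, and every comparison below sets values side by side with no test.

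HOX genes encode homeodomain transcription factors that give cells their position along the body axis of the embryo. The genes stand in the same order in each cluster, from the low numbers, which act towards the head, to the high numbers, which act towards the tail, a relation known as collinearity. In blood, several HOXA and HOXB genes, among them HOXA9 and HOXB4, are known for roles in stem and progenitor cells. Polycomb complexes, which mark chromatin for silencing, are known to cover HOX genes that are not in use. None of these properties was measured here.

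Along rising coordinates, the 38 member genes run from HOXA2 to HOXA13 in HOXA (10 genes), from HOXB1 to HOXB13 in HOXB (10), from HOXC13 to HOXC4 in HOXC (9) and from HOXD13 to HOXD1 in HOXD (9). This order was taken from the RefSeq gene table of GRCh38.p14, whose positions were not set against the hg19 regions, so no gene was assigned to a region. Promoter sequences of that table were matched for 20 of the 38 genes, at 26 start sites. Of these sites 16 are in HOXA, 7 of them of HOXA3, and 8 in HOXD, while HOXB and HOXC have 1 each, so the values below describe mainly HOXA and HOXD. Over the 300 bases around each start, from 250 before it to 50 after it, the member promoters held a median of 22.5 CG dinucleotides, with a range of 0 to 44, against a median of 14 over 34943 promoters of the table. At 19 of the 26 the number of CG pairs was at or above that median, while the median GC content, 58% for members and 58.7% for all, was nearly the same. The CG pair was counted as the letters CG, which read the same on both strands, and 96.0% of all promoters held at least 1. To show this sequence in each cluster, the 250 bases before the start are given for the matched gene of lowest number, with CG pairs in capitals. HOXC4 and HOXC5 share the start listed for them.
HOXA2 (GRCh38.p14, chr7:27102684-27102933, minus strand): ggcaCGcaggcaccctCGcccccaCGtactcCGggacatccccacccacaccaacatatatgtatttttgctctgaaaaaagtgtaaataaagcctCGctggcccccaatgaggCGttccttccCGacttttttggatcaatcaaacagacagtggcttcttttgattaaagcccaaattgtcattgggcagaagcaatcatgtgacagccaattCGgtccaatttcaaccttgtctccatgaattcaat
HOXB1 (GRCh38.p14, chr17:48531012-48531261, minus strand): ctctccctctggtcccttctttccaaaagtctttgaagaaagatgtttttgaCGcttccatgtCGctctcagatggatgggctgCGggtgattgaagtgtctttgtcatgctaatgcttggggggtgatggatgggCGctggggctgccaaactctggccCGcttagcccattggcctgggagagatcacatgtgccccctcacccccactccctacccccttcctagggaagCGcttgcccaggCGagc
HOXC4 and HOXC5 (GRCh38.p14, chr12:54016638-54016887, plus strand): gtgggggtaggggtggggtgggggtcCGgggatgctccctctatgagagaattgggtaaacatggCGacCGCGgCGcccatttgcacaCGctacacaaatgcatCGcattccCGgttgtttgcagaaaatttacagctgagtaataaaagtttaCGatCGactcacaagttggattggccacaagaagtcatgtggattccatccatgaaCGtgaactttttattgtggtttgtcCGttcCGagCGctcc
HOXD1 (GRCh38.p14, chr2:176188418-176188667, plus strand): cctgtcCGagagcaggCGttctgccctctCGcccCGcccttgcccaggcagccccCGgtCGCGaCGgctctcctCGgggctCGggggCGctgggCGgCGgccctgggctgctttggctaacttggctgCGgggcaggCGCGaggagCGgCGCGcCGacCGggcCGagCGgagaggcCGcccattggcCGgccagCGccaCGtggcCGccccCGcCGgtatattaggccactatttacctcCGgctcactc
These 4 promoters held 8, 7, 14 and 31 CG pairs in the stretch shown, in that order. Other promoters of the same clusters differed widely, with 40 pairs before HOXA13 and 4 before HOXD4 in the stretch of the same length. No base of HOXB or HOXD was covered by a listed region, so no promoter within those clusters lies in one. For the stretches in HOXA and HOXC this was not tested, since the sequences and the list are of different builds.

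The clusters also hold microRNA genes, which encode short RNAs that repress messenger RNAs through their seed. The RefSeq table places 8 of them between the outermost member genes, 1 in HOXA, 3 in HOXB, 2 in HOXC and 2 in HOXD. The 5p mature RNAs of the miR-196 genes are shown because these genes occur both in HOXA and HOXC, which hold a listed region, and in HOXB, which does not. The 5p RNA of MIR10A is shown as another microRNA of HOXB. The seed (bases 2 to 8) is in capitals.
hsa-miR-196a-5p (MIR196A1 in HOXB and MIR196A2 in HOXC): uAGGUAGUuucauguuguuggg
hsa-miR-196b-5p (MIR196B in HOXA): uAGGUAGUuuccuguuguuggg
hsa-miR-10a-5p (MIR10A in HOXB): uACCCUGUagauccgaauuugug
The 5p RNAs of miR-196 share 1 seed and differ by the substitution A12C, counted from the 5′ end of miR-196a-5p. The same mature miR-196a-5p is thus encoded in HOXB, where no region was listed, and in HOXC, where 1 was. That region lay 2.43 kb from the upper bound of HOXC, and its distance from MIR196A2 was not tested. No difference in accessibility between the 2 gene copies was therefore shown. Of the 8 microRNA genes, 5 belong to HOXB and HOXD. Those 2 clusters span 297 of the 532 kb and hold 19 of the 38 member genes. The count is thus near their share and is not a result about the microRNA genes.

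Both listed regions lay at the edge of their cluster on the side of the low-numbered genes. In HOXA the region spanned 1032 bp (chromosome 7, 27135105 to 27136136), and its midpoint lay 3.01 kb from the lower bound, or 2.56% of the way along the cluster. HOXA2, which takes part in patterning the hindbrain, is the member gene on that side. In HOXC the region spanned 1235 bp (chromosome 12, 54446769 to 54448003), and its midpoint lay 2.43 kb from the upper bound, or 97.9% of the way along. HOXC4 is the member gene on that side. The interior of both clusters was without a listed region, over 113.9 kb of HOXA towards HOXA13 and over 114.2 kb of HOXC towards HOXC13. The upper bound set for HOXA, 27250000, is a round number and was not checked against gene positions in hg19. The length of HOXA, its density and the percent along it are thus approximate. HOXA13 and HOXC13, known for roles in the limbs and in hair and nails, stand at the high-numbered ends. With 1 region in each cluster, the shared side is a description of 2 positions.

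**Figure D1:**
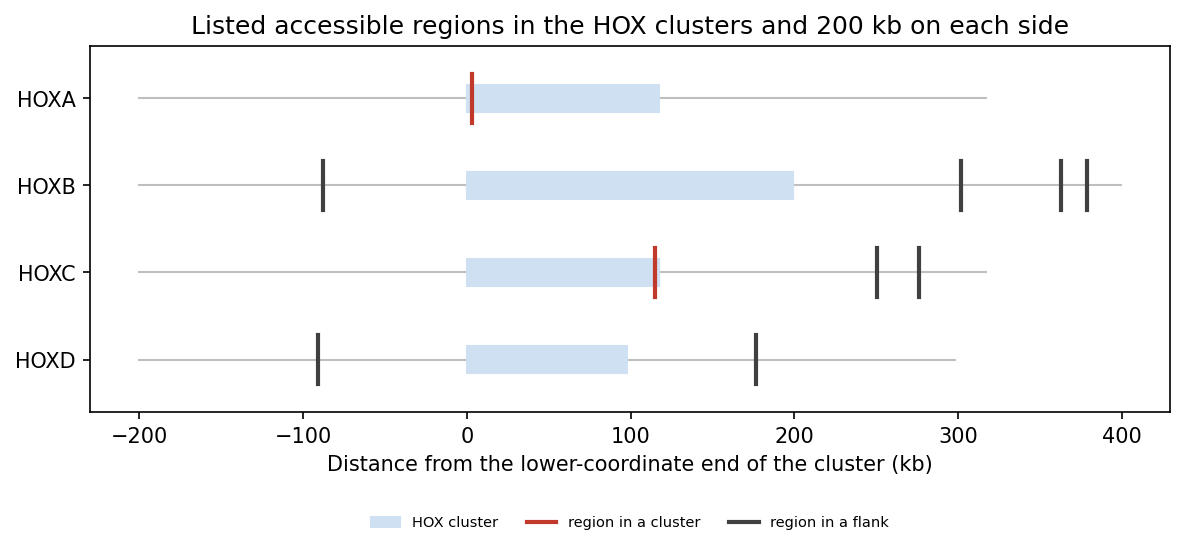
Midpoints of listed regions (vertical bars) in each HOX cluster (blue) and in the 200 kb on each side, against the distance in kb from the cluster's lower-coordinate end. The 2 regions in clusters (red) sit 3.01 kb from the lower end of HOXA and 2.43 kb from the upper end of HOXC, and the 8 regions in flanks (dark grey) lie at least 78.2 kb from a cluster.

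The 2 member regions were wider than the median region and stood at the highest score. The authors' score of each region, whose scale is not spelled out in the labels, runs from 541 to 1000 in the list, and both members had 1000, as did 59.9% of regions on chromosomes 1 to 22 and X. The region in HOXA was wider than 72.2% of the regions on these chromosomes and the region in HOXC wider than 82.2%, against a median of 756 bp. Regions at the highest score were wider in general, with a median of 954 bp, and the members exceeded 57.0% and 71.5% of those. The widths of the members thus lay above both medians, within the ordinary range of the list.

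Between them the clusters held fewer regions per Mb than the list as a whole, by a margin that depended on the score. The 4 clusters span 532 kb, and 2 regions make 3.76 per Mb, against 7.72 per Mb over chromosomes 1 to 22 and X. At the latter density a stretch of this length would hold 4.11 regions. The clusters thus had 0.487 times the density of the list, and with regions at the highest score only they had 0.812 times its density. Regions covered 0.426% of the clusters' bases and 0.682% of those chromosomes. With counts this small, a single region more or less moves the density of the clusters by a large part, and no interval between cultures can be given.

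The clusters fell into a pair with a region each and a pair without. HOXA, at 117 kb, and HOXC, also at 117 kb, each held 1 region, which corresponds to 8.52 and 8.53 per Mb and covered 0.879% and 1.05% of their bases. HOXB, the longest at 199 kb, held 0 regions, where the list's density would give 1.54, and HOXD, the shortest at 98.1 kb, held 0 where it would give 0.757. HOXB contains HOXB4, and HOXD contains HOXD13, a gene of digit formation. In all, 19 of the 38 genes belong to a cluster with no listed region, which together span 297 kb.

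Stretches of this length without a region were common in the list. When chromosomes 1 to 22 and X were divided into fixed windows of 100 kb, leaving out centromeric, variable and stalk bands, 42.8% of 28110 windows held 1 region or more, and 57.2% held none. Of 14036 windows of 200 kb, 60.8% held 1 or more and 39.2% none. HOXA, HOXC and HOXD are close to the first length and HOXB to the second, so 2 of 4 clusters with a region is near the background and is not a result about the HOX clusters. Windows with 3 regions or more made up 9.87% at 100 kb and 25.5% at 200 kb, and no HOX cluster was among such loci.

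**Figure D2:**
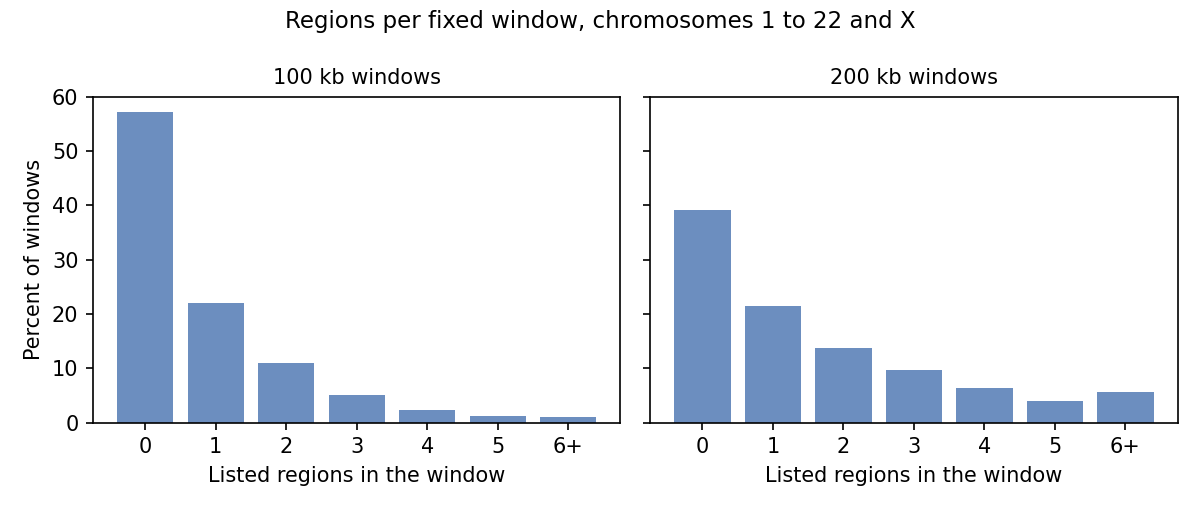
Percent of fixed windows of 100 kb (left) and 200 kb (right) on chromosomes 1 to 22 and X that hold the number of listed regions on the horizontal axis, with 6 or more pooled. Windows without a region make up 57.2% and 39.2%, so a cluster with 0 or 1 region lies in the most frequent classes.

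The flanks held slightly more regions per Mb than the clusters, and the number varied from 0 beside HOXA to 4 beside HOXB. The 200 kb on each side held 8 regions over 1.6 Mb, or 5 per Mb, against 3.76 per Mb within the clusters. At the highest score only, 3 regions remained in the flanks and both members in the clusters, and the clusters then had 2.00 times the density of the flanks. HOXB, with no region inside, had 4 in its flanks, 1 on the side of HOXB1 and 3 on the side of HOXB13. HOXD had 1 on each side, HOXC 2 beyond HOXC4 and none beyond HOXC13, and HOXA none on either side. Regions covered 0.402% of the flanks, close to the 0.426% of the clusters. No region lay within 78.2 kb of a cluster's bounds on the outside, and the nearest was on the HOXD1 side of HOXD.

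The flanking regions were mostly narrower and of lower score than the 2 members. Their widths ran from 438 to 1827 bp with a median of 609 bp, and 3 of the 8 were at the score of 1000. The 4 regions that flank HOXB were 440, 438, 960 and 555 bp wide, and only the region of 960 bp was at the highest score. Both regions beyond HOXC4, of 610 and 608 bp, were below it, at 988 and 733. The regions beside HOXD, of 1827 bp on the side of HOXD13 (chromosome 2, 176865845 to 176867671) and 990 bp on the side of HOXD1 (chromosome 2, 177133879 to 177134868), were both at it. With these counts the difference between members and flanks is a description.

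The region in HOXA stood alone over a long distance. Its neighbours in the list lay 230 kb below and 566 kb above it, where the median distance between neighbouring regions was 44.1 kb and the third quartile 123 kb. The upper stretch, from 27136137 to 27701893, begins in HOXA, runs past HOXA13 and was exceeded in length by 3.89% of all such stretches on chromosomes 1 to 22 and X. The region in HOXC had its neighbours 325 kb below and 134 kb above. HOXB lay whole within a stretch of 389 kb without a region (chromosome 17, 46519125 to 46908156), exceeded by 6.76% of stretches, and HOXD within one of 266 kb (chromosome 2, 176867672 to 177133878), exceeded by 11.2%. A stretch that spans a whole cluster must be at least as long as the cluster, so these ranks follow in part from the choice of loci. The list numbers its regions in order, and 0 numbers were skipped across these stretches or beside the 2 members.

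The cytogenetic bands around the clusters ranged from poor to rich in regions. Band 7p15.2, which holds HOXA, had 13 regions in 2.5 Mb, or 5.20 per Mb, against 8.50 for chromosome 7. Band 17q21.32, with HOXB, had 8.40 per Mb against 6.21 for chromosome 17, and 12q13.13, with HOXC, had 10.6 against 9.08 for chromosome 12. Band 2q31.1, with HOXD, had 7.47 against 8.75 for chromosome 2. HOXB was thus a stretch without regions in a band denser than its chromosome, whereas HOXA, with 1 region and none in its flanks, lay in the sparsest of the 4 bands. The bands and their densities were added after the counts in the clusters were known.

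**Figure D3:**
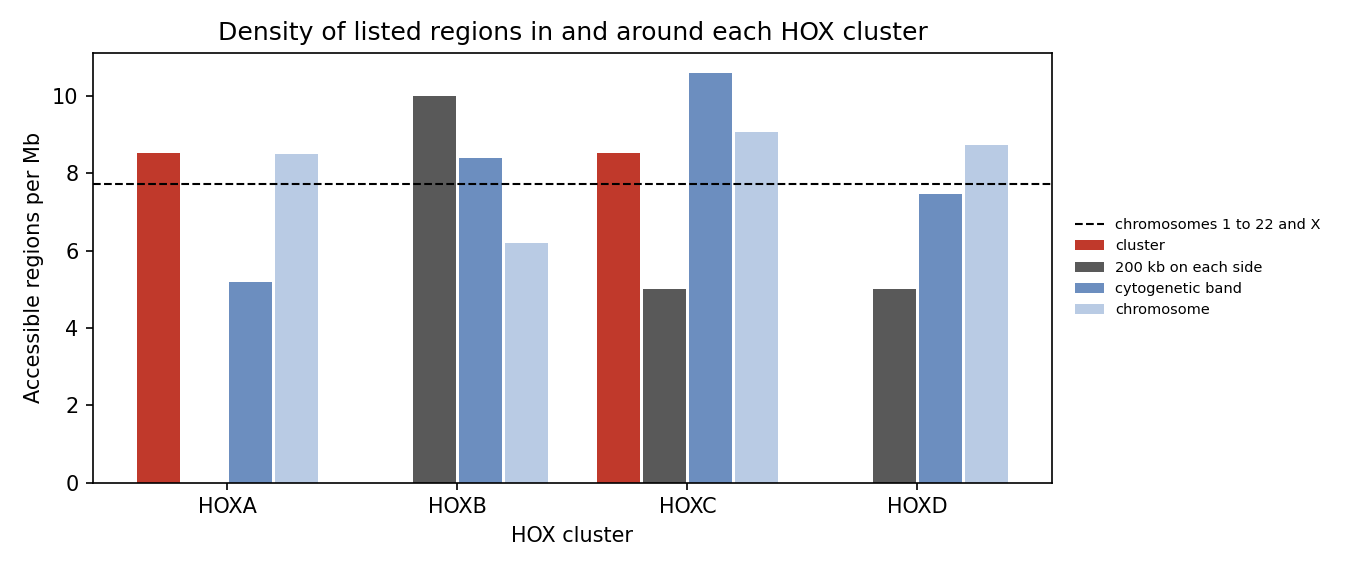
Listed regions per Mb in each HOX cluster (red), the 200 kb on each side (dark grey), the cytogenetic band (blue) and the whole chromosome (pale blue), with the density over chromosomes 1 to 22 and X as a dashed line. A missing bar is a value of 0: the clusters HOXB and HOXD and the flanks of HOXA hold none, and each red bar stands for a single region.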

How the data were processed

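Accessible chromatin was measured by ATAC-seq in 2 cultures of GM12878, replicates of 1 group per the labels. The authors' deposited list covers both cultures and gives each region a score, a whole number from 541 to 1000 whose scale the labels do not spell out. The list's name abbreviates what appears to be an irreproducible discovery rate threshold, and filters for mappability, mitochondrial and blacklisted sequence. Their settings are not stated. No region number is skipped across the HOX clusters, and removal of reads or regions before numbering was not tested. Per the submitters' processing notes, MACS2 2.1.0 and BWA 0.7.13 were among the tools, beside bedtools 2.24.0, SAMtools 0.1.19, Picard 1.92, Trim Galore 0.3.3 and CASAVA 1.8.4, and the build was hg19. The notes give no roles, and any shift of reads for the transposase is not stated in what was used here.

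From the list were computed counts by midpoint, regions per Mb of locus, covered bases and distances, with Python 3.11.15, numpy 2.4.6 and pandas 2.3.3. Bands and chromosome lengths of hg19 came from circlize 0.4.16, and lengths include unsequenced bases. Counting was tested on simulated data. Promoter and microRNA sequences are from RefSeq (GRCh38.p14). All member regions are named, as the rule for 20 or fewer members set. The clusters, bounds and comparisons were chosen with earlier results of these data known. No test over samples was possible, and the alternatives tried were another rule of membership, the highest score only, other flanks, windows and reference chromosomes.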

Additional observations from a re-analysis of the deposited data

How the results depend on the processing

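Over 7 results and 16 alternatives, 14 values stayed within 1.5 times of the value reported and 2 moved further. With regions at the highest score only, the clusters held 2.00 times the density of their flanks, where all regions gave 0.752, because both members and 3 of the 8 flanking regions are at that score. Against chromosomes 1 to 22 and X, the ratio rose from 0.487 to 0.812 with the same restriction. The order of clusters and flanks thus depends on the score. With 100 kb on each side the ratio of clusters to flanks was 1.002, from 3 flanking regions, and with 500 kb it was 0.519, from 29. The members were the same 2 regions under every alternative rule, HOXB and HOXD held none in each, and the distance from the edge of a cluster stayed at most 3.01 kb. Because both members are at the highest score, restriction to that score could not change their number, widths or positions. Nor could it add a region to HOXB or HOXD. For these results that alternative is no check, although its values count among the 14. No paired analysis was possible because both cultures share 1 group and 1 list, and for the same reason neither culture could be left out. Depth is unknown, so a stretch without a listed region cannot be called closed chromatin.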
